A study of Fragaria x ananassa with 6 samples.

Results

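A set of 85 transcript IDs was present in every Control receptacle library of cultivated strawberry and nearly or fully without reads in the FaWRKY71-RNAi libraries. An ID belonged to the set if it had at least 10 counts in each of the 3 Control libraries and at most 5 counts summed over the 3 FaWRKY71-RNAi libraries, after rounding to whole numbers. Of the 28588 IDs in the deposited table, 14137 had at least 10 counts in each Control library, and the 85 members were 0.601% of these. The rule also named 7 IDs to be left out, and 0 of them met its limits. With the same limits and the genotypes exchanged, 160 of 14335 IDs (1.12%) were found, present in FaWRKY71-RNAi and nearly without reads in Control. The members were chosen on the counts of all 6 libraries, so their difference between the genotypes is described here without a test.

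The FaWRKY71-RNAi plants carried the vector pFRN with a piece of the FaWRKY71 coding sequence, which is transcribed as a hairpin RNA. The Control plants carried the empty pFRN vector. Both were stable Agrobacterium transformants of Fragaria x ananassa cv Chandler, none was treated, and messenger RNA of the fruit receptacle was sequenced in 3 libraries per genotype. The sources used here do not state the number of transgenic lines, the fruit stage or the promoter of the vector, and the labels describe the libraries as independent biological replicates without saying which plants they came from.

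As background, WRKY proteins are plant transcription factors that bind a short promoter element known as the W-box and are known for roles in defence, senescence and water deficit. A hairpin RNA is cut into small RNAs that direct the degradation of matching transcripts. The receptacle is the swollen end of the flower stalk that carries the achenes, the true fruits. The cultivated strawberry is octoploid, so most genes exist in several similar copies, whereas IDs that start with FvH4 follow the gene naming of the diploid woodland strawberry, Fragaria vesca. The number before the letter g gives the series, 1 to 7 or c with a number, and the number after it the place in the series. No file used here links these IDs to gene names, so members are given by ID, no function can be stated for any of them, and neither the silencing of FaWRKY71 itself nor tissue markers were analysed here. No sequence of a member was at hand.

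The libraries held between 8385218 and 9498057 counts in FaWRKY71-RNAi and between 9320022 and 10000538 in Control. The spread between libraries beyond counting noise (the biological coefficient of variation) was 26.7% in FaWRKY71-RNAi and 6.58% in Control. In a test of all IDs that passed a filter on low counts, 54.3% of 15547 IDs were called different, 24.2% lower and 30.1% higher in FaWRKY71-RNAi (edgeR's quasi-likelihood test, Benjamini-Hochberg adjusted p below 0.05). The split was 4676 higher and 3760 lower, and with library size as the only scaling 5440 higher and 2857 lower. Of the members, 80 passed the filter and 80 were called lower, against the 24.2% above; the rule used this contrast, so nothing is read from that count. In bulk RNA, fewer cells of a type and less RNA per cell cannot be told apart.

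Most members were of low abundance in Control. Their mean over the Control libraries ranged from 10.3 to 2101 counts with a median of 24.7, and 79 of the 85 lay below 178, the median of the 14137 IDs that could have met the rule. The rule allows at most 5 counts in FaWRKY71-RNAi at any Control level, so a rare ID meets it with a smaller fall. The low abundance is therefore in part set by the rule. Together the members held 6.96, 7.46 and 6.45 CPM (counts per 1000000 of the library size after scaling) in FaWRKY71-RNAi replicates 1 to 3, against 668.2, 697.5 and 685.0 CPM in Control replicates 1 to 3. That is 6.96 ± 0.505 CPM in FaWRKY71-RNAi and 683.6 ± 14.7 CPM in Control (SD, n = 3 each). A single ID held 33.6% of the Control sum and the 10 most abundant held 66.9%. Without the most abundant ID the sums were 6.92 ± 0.559 CPM in FaWRKY71-RNAi and 453.9 ± 9.11 CPM in Control (SD, n = 3 each). The heatmap of counts by library shows the 85 members in this order of abundance.

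**Figure D1:**
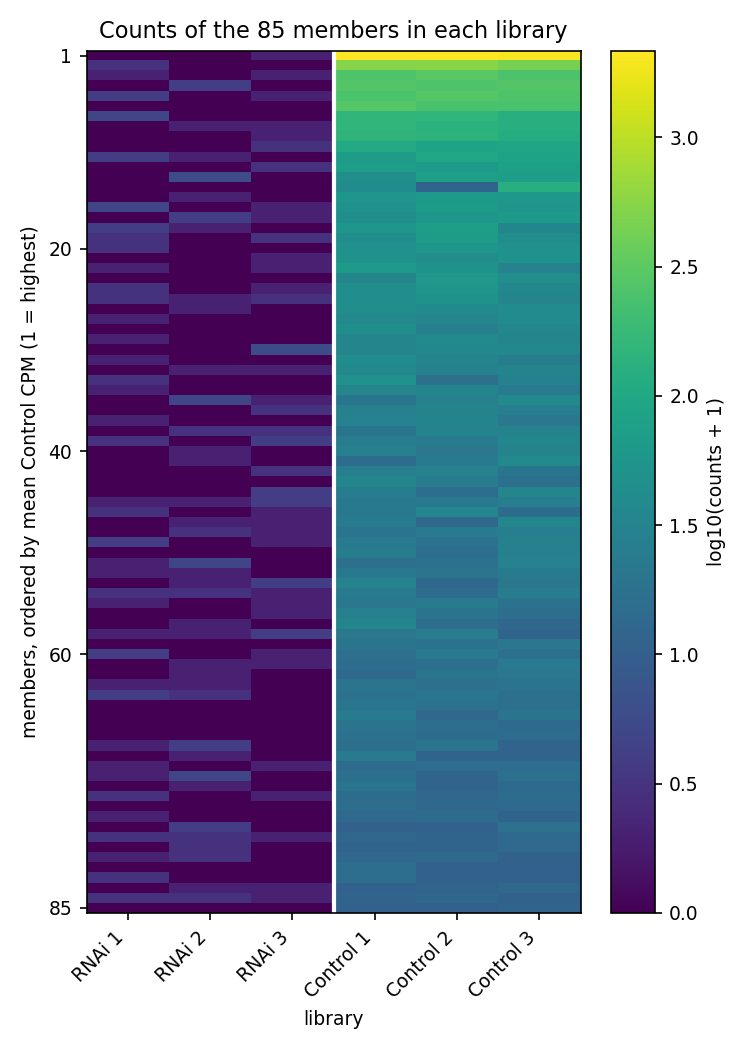
Counts of the 85 members (rows, ordered by mean Control CPM) in each library (columns), coloured by log10(counts + 1). The FaWRKY71-RNAi columns hold at most 5 counts in any cell, and the Control columns grade from 2161 counts at the top to 10 at the bottom.

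FvH4_6g38920.1 was the most abundant member in Control. It had 0, 0 and 1 counts in FaWRKY71-RNAi replicates 1 to 3, against 2137, 2161 and 2004 counts in Control. The next, FvH4_1g04060.1, had 2, 0 and 0 counts in FaWRKY71-RNAi and 539, 558 and 446 in Control. Both were thus at the level of single reads in each FaWRKY71-RNAi library and within a narrow range in Control. From the pooled counts FvH4_1g04060.1 was 792.9-fold lower in FaWRKY71-RNAi, with an exact 95% interval from 219.1 to 6553. Without FaWRKY71-RNAi replicate 1, which held both reads, it was at least 340.0-fold lower. Such intervals cover counting error only, and reads are not independent molecules.

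A second tier of abundance, from 27.4 to 29.7 CPM in Control, held 4 members. FvH4_1g12550.1 had 1, 0 and 1 counts in FaWRKY71-RNAi and 258, 300 and 255 in Control. FvH4_4g24850.1 had 0, 3 and 0 counts in FaWRKY71-RNAi and 272, 259 and 274 in Control. FvH4_2g09610.1 had 3, 0 and 1 counts in FaWRKY71-RNAi and 245, 286 and 260 in Control. The few remaining reads lay in replicates 1 and 3 of FaWRKY71-RNAi for FvH4_1g12550.1 and FvH4_2g09610.1, and in replicate 2 for FvH4_4g24850.1. FvH4_1g10500.1, the fourth, had 0 counts in each FaWRKY71-RNAi library and 282, 234 and 237 in Control, which is at least 258.0-fold lower when the pooled FaWRKY71-RNAi count is set to a floor of 3 counts. Such a bound scales with the reads pooled, and without FaWRKY71-RNAi replicate 1 it was 165.9. Its reads were partly shared with a neighbouring ID, which is described below.

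The other 4 of the 10 most abundant lay between 10.2 and 16.0 CPM in Control. FvH4_5g07710.1 had 4, 0 and 0 counts in FaWRKY71-RNAi and 156, 158 and 126 in Control. FvH4_2g01660.1 had 0, 1 and 1 counts in FaWRKY71-RNAi and 156, 135 and 127 in Control. FvH4_6g41590.1 had 0, 0 and 1 counts in FaWRKY71-RNAi and 145, 142 and 116 in Control. The genotypes were far apart in each of these, since the rule requires it. FvH4_3g35280.1 had 0, 0 and 2 counts in FaWRKY71-RNAi and 107, 84 and 90 in Control.

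**Figure D2:**
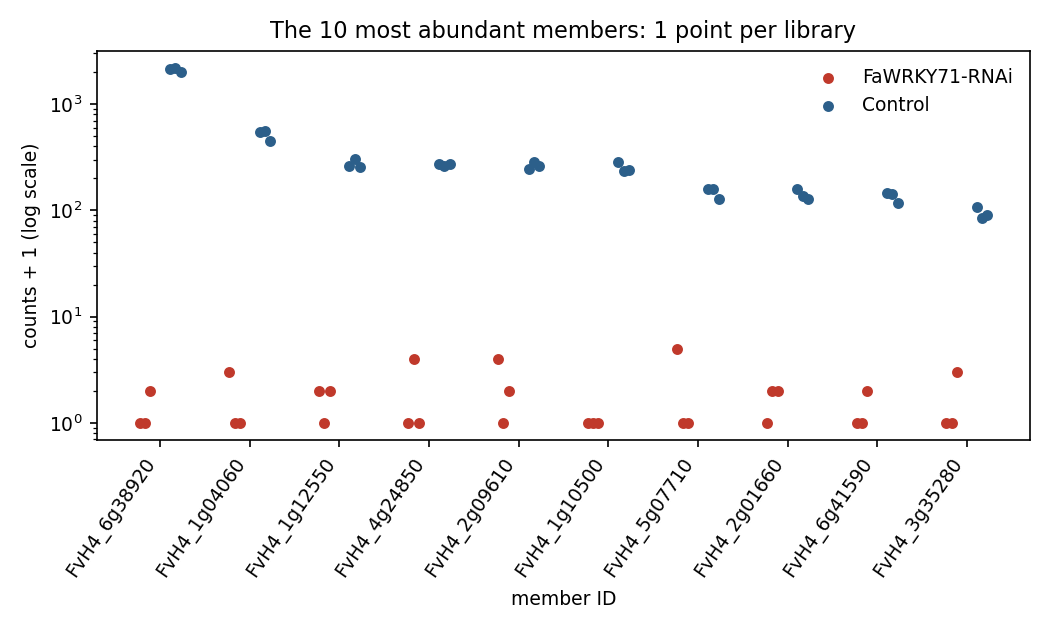
Counts plus 1 on a log axis for the 10 most abundant members, with 1 point per library, FaWRKY71-RNAi in red and Control in blue. Every red point stands for 4 counts or fewer and every blue point for 84 or more.

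The evidence for loss differed with abundance. The lower limit of the fold (the lower end of the exact interval, or the bound from the floor of 3 counts) was at least 100 for 4 members, at least 50 for 9, at least 20 for 21, at least 10 for 50 and at least 5 for 73. Those at 100 or more included FvH4_1g10500.1 (258.0), whose sum with a read-sharing neighbour overlapped between the genotypes, as described below. Those at 50 or more also included FvH4_1g05190.1 (59.27), with fractional and uneven Control values. Those at 10 or more included FvH4_6g45540.1 (13.7), whose sum with its neighbour was higher in FaWRKY71-RNAi. They also included FvH4_7g18550.1 (17.29), whose sum with a read-sharing partner was 7.63 CPM in FaWRKY71-RNAi against 19.1 CPM in Control. FvH4_1g21160.1 (8.609), among those at 5 or more, had such a sum of 8.01 CPM in FaWRKY71-RNAi against 19.4 CPM in Control. The lower limit had a median of 12.6 and a lowest value of 2.63. For the rarest members the counts thus do not separate a loss from a moderate decrease. Of the 85, 9 had a Control mean of at least 100 counts. Among all 8970 IDs at that level or above, 14 had a FaWRKY71-RNAi level under 1% of Control, the 9 members among them. A further 6 lay from 1% to under 2%, 15 from 2% to under 5%, 30 from 5% to under 10%, and 77 from 10% to under 20%. The IDs under 1% thus outnumbered those in the next band of equal width. The rule used these same values and 9 of the 14 were members, so this is a description only. The other 76 members were too rare to enter this count.

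**Figure D3:**
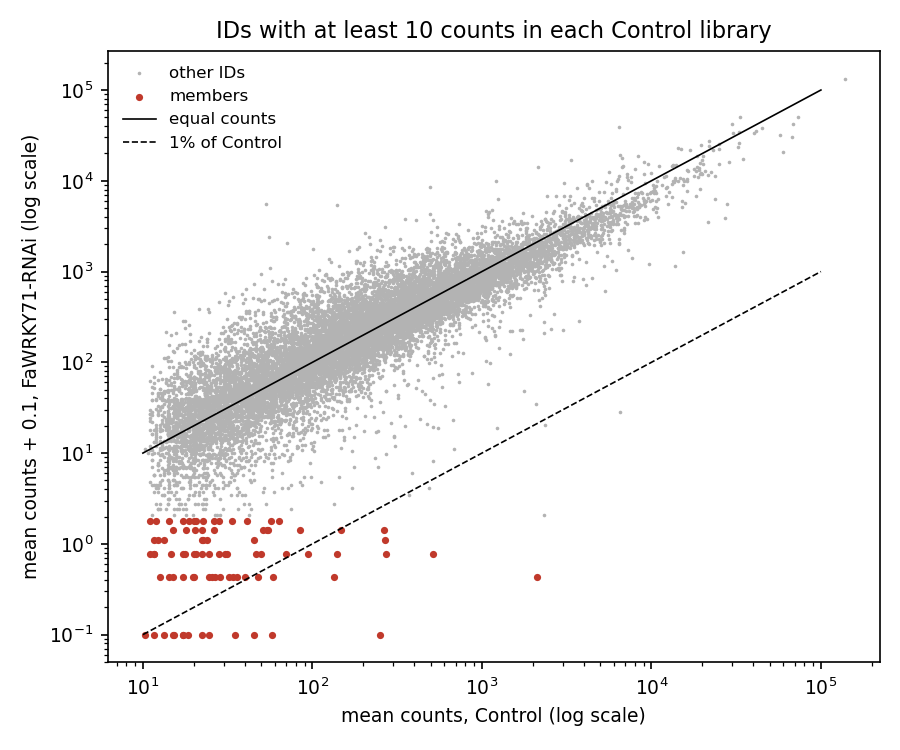
Mean counts in FaWRKY71-RNAi plus 0.1 against mean counts in Control, both on log axes, for the 14137 IDs with at least 10 counts in each Control library. The 85 members (red) form the rows at the bottom, and 14 IDs with a Control mean of at least 100 counts lie under 1% of Control.

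The limits of the rule cut through similar IDs. Just inside the limit of 5 counts, FvH4_5g00780.1 had 0, 5 and 0 counts in FaWRKY71-RNAi and 45, 75 and 70 in Control. Its deposited value in FaWRKY71-RNAi replicate 2 was 5.18733, so it was inside only after rounding. FvH4_3g14600.1, also just inside this limit, had 4, 0 and 1 in FaWRKY71-RNAi and 48, 69 and 54 in Control. Just outside it, with 6 counts, FvH4_2g11650.1 had 0, 1 and 5 counts in FaWRKY71-RNAi and 2455, 2253 and 2224 in Control, and FvH4_2g06270.1 had 3, 1 and 2 in FaWRKY71-RNAi and 34, 48 and 45 in Control. FvH4_2g11650.1 is therefore no member although its mean in Control, 252.5 CPM, is above that of every member. Just inside the limit of 10 counts were FvH4_2g32760.1, with 0, 3 and 0 counts in FaWRKY71-RNAi and 10, 10 and 17 in Control, and FvH4_4g32790.1, with 1, 2 and 0 in FaWRKY71-RNAi and 12, 13 and 10 in Control. Just outside it were FvH4_7g16990.1, with 2, 0 and 1 counts in FaWRKY71-RNAi and 17, 15 and 9 in Control, and FvH4_3g38270.1, with 0, 2 and 0 in FaWRKY71-RNAi and 16, 15 and 9 in Control. A FaWRKY71-RNAi sum of exactly 6 was found for 9 IDs and a lowest Control count of exactly 9, together with a FaWRKY71-RNAi sum of at most 5, for another 9.

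The reads that remained over the 85 members came to 70, 66 and 60 counts in FaWRKY71-RNAi replicates 1 to 3, and 46, 48 and 46 members had 0 counts there. The rule caps the sum over these libraries at 5, so these numbers do not show how evenly the loss is spread over them. No read remained in any FaWRKY71-RNAi library for 14 members, reads were found in a single library for 33, in a pair of libraries for 32 and in all of them for 6. After FvH4_1g10500.1, the most abundant members with 0 counts in every FaWRKY71-RNAi library were FvH4_1g05190.1, FvH4_6g11170.1, FvH4_4g15690.1 and FvH4_2g16730.1. FvH4_4g15690.1 had 45, 26 and 34 counts in Control and was at least 35.97-fold lower in FaWRKY71-RNAi. FvH4_2g16730.1 had 33, 25 and 16 counts in Control and was at least 25.35-fold lower. Without FaWRKY71-RNAi replicate 1 these bounds were 23.14 and 16.31, since fewer reads are pooled.

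Of the IDs with at least 10 counts in each Control library, FvH4_3g23300.1 was the 1 that had at most 1 count in 2 FaWRKY71-RNAi libraries and at least 10 in the third, with 0, 16 and 0 counts in FaWRKY71-RNAi and 45, 39 and 15 in Control; it was singled out after its values were seen. The rule was also applied with each library left out in turn, and the library left out was then read. With FaWRKY71-RNAi replicate 2 left out, 164 IDs met the rule, and 119 of them had at most 5 counts in that library while 18 had 10 or more, up to 32. With replicate 1 left out, 111 of 118 IDs had at most 5 counts in it and 2 had 10 or more. With replicate 3 left out, 117 of 123 had at most 5 and 3 had 10 or more. Replicate 2 thus kept reads of more such IDs than the other libraries of its genotype. Leaving out a Control library gave 98, 98 and 107 IDs for replicates 1 to 3. Besides the members, these were 13, 13 and 22 IDs with fewer than 10 counts in the library left out.

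The Control libraries varied among themselves about as much for members as for other IDs of like abundance. Between the lower and the upper quartile of the members' Control means, the ratio of the highest to the lowest Control library in CPM had a median of 1.58 over 45 members and 1.47 over 2421 other IDs. The ratio was at least 2 for 12 members. FvH4_1g05190.1 stood apart, with 0 counts in each FaWRKY71-RNAi library and 40, 11 and 122 in Control, a ratio of 11.5 between Control replicates 3 and 2. Its deposited Control values were fractional, 40.003, 10.8992 and 122.35, and no ID that shared its reads was found in the search described below. This ID was at least 59.27-fold lower in FaWRKY71-RNAi with all libraries. The bound was 25.73 without Control replicate 3 and 38.12 without FaWRKY71-RNAi replicate 1. The next were FvH4_c1g00540.1, with 0, 1 and 0 counts in FaWRKY71-RNAi and 14, 22 and 38 in Control (ratio 2.93), and FvH4_c1g00050.1, with 0, 1 and 1 in FaWRKY71-RNAi and 22, 12 and 33 in Control (ratio 2.85). Control replicate 3 was the highest Control library in all 3 of these IDs.

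The members were spread over all 7 numbered series. They made up between 0.24% (series 7, 4 of 1668 IDs) and 0.747% (series 5, 15 of 2008 IDs) of the IDs that could have met the rule. The c1 and c3 series held 9 members of 38 such IDs (23.7%), against 76 of 14099 (0.539%) elsewhere. This split, also used below, was made after the data were seen. The series c4, c5, c6 and c9 had 1, 1, 3 and 1 such IDs with 0 members, and were counted as elsewhere. The 9 members of c1 and c3 had 21 counts in all FaWRKY71-RNAi libraries together and 627 in Control. Their level in FaWRKY71-RNAi was between 1.34% and 8.07% of Control, with a median of 3.13%. The other 29 IDs of these series had 912 counts in FaWRKY71-RNAi and 10649 in Control, and a median level of 12.8% of Control. The rule capped the members at 5 counts summed over FaWRKY71-RNAi, so nothing is read from their lower level. The 9 members were less abundant, with a median Control mean of 20.7 counts, against 42.0 for the other 29. In summed CPM the 9 members had 0.695, 1.02 and 0.538 in FaWRKY71-RNAi, against 19.6, 21.7 and 27.6 in Control.

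In the order of ID numbers, 11 of the 85 members (12.9%) stood directly beside another member, in 5 runs. Of the other 14052 IDs that could have met the rule, 66 (0.47%) stood directly beside a member. Outside c1 and c3 the numbers were 6 of 76 members (7.89%) and 62 of 14023 other IDs (0.442%), and this difference was not tested. FvH4_5g21820.1 had 1, 0 and 0 counts in FaWRKY71-RNAi and 29, 31 and 20 in Control. Its neighbour FvH4_5g21830.1 had 2, 1 and 2 in FaWRKY71-RNAi and 42, 50 and 32 in Control. These were of similar level in Control. FvH4_6g11170.1 had 0 counts in each FaWRKY71-RNAi library and 33, 59 and 44 in Control. Its neighbour FvH4_6g11180.1 had 0, 0 and 2 in FaWRKY71-RNAi and 70, 63 and 78 in Control. The pair of FvH4_6g41590.1 and FvH4_6g41600.1 was less alike in level, since FvH4_6g41600.1 had 0 counts in each FaWRKY71-RNAi library and only 19, 17 and 16 in Control. Their fractional values completed each other to whole numbers in 3 libraries, as described below. Whether the members of this pair were lost separately was not tested. The remaining runs were in the c1 and c3 series. FvH4_c1g00530.1 had 2, 0 and 0 counts in FaWRKY71-RNAi and 15, 10 and 10 in Control, FvH4_c1g00540.1 followed it, and FvH4_c1g00550.1 had 2, 0 and 2 in FaWRKY71-RNAi and 42, 68 and 43 in Control. FvH4_c3g00110.1 had 1, 4 and 0 counts in FaWRKY71-RNAi and 16, 17 and 29 in Control, beside FvH4_c3g00120.1 with 1, 0 and 1 in FaWRKY71-RNAi and 14, 15 and 15 in Control.

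The IDs that flank the members were not chosen by the rule, so they were compared in the fit of all IDs. The flanks were the 2 nearest tested non-members on each side of every member in ID order, 301 IDs in all. Of these, 91 (30.2%) fell and 83 (27.6%) rose in FaWRKY71-RNAi by edgeR's adjusted p, against 23.8% and 30.2% of all 15467 tested non-members. Their median log2 fold change was -0.13, against 0.03 over all IDs tested. Much of this came from c1 and c3. Without these series 74 of 283 flanks (26.1%) fell and 83 (29.3%) rose, against 23.7% and 30.3% of the other non-members, and the median was -0.08. Outside c1 and c3 the share that fell was thus near the background.

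Of the 301 flanks, 17 (5.65%) fell by 8-fold or more, against 0.795% of all tested non-members; this limit was chosen after the data were seen. Outside c1 and c3 the number was 8 of 283 (2.83%), against 0.706% of the other non-members. All 8 were nearest flanks, 6 on the side of the lower ID number. FvH4_5g01820.1 lies directly between members and was counted on the side of the higher ID number, although it borders a member on each side. With 5 flanks on each side the number outside c1 and c3 was 12 of 699 (1.72%). In the fit restricted to IDs with whole values, 4 of 283 flanks (1.41%) fell that far, against 0.642% of the others. Without FaWRKY71-RNAi replicate 2 there were 15 of 283 (5.30%) outside c1 and c3, against 1.59%. Members outside c1 and c3 with such a flank numbered 9.

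**Figure D4:**
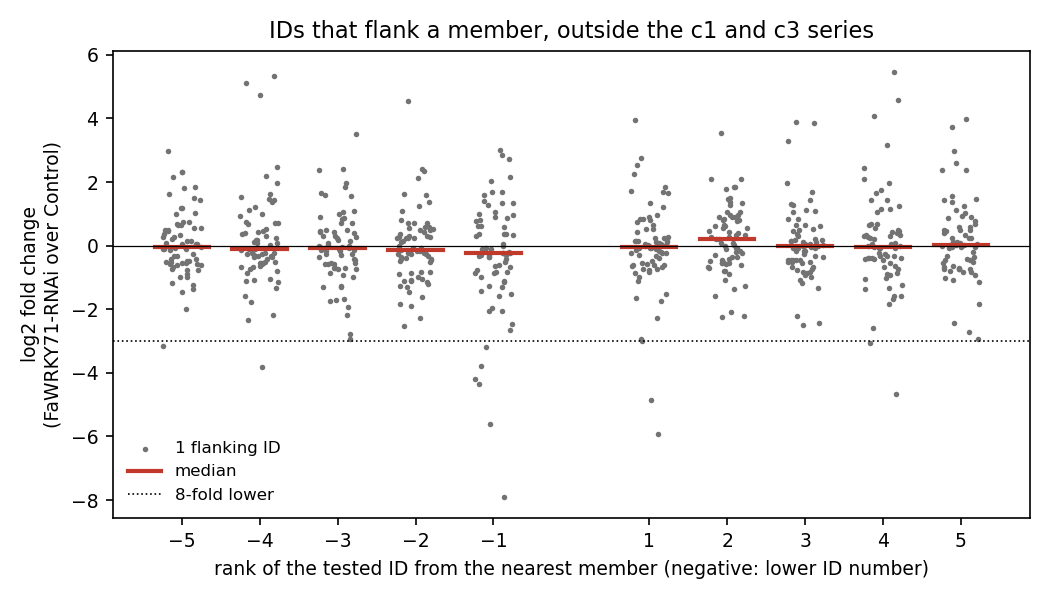
Fitted log2 fold change (FaWRKY71-RNAi over Control) of tested IDs by their rank from the nearest member, outside the c1 and c3 series, with the median of each rank in red. The medians lie between -0.23 and 0.20, and 12 IDs lie below the dotted line at 8-fold lower, 8 of them nearest flanks and 4 at ranks of 4 or 5.

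The flank that fell most was FvH4_1g04050.1, next to the second most abundant member FvH4_1g04060.1. It had 45, 8 and 32 counts in FaWRKY71-RNAi and 6874, 6476 and 6125 in Control, that is 2.94 ± 1.84 CPM against 709.2 ± 13.8 CPM (SD, n = 3 each), with a log2 fold change of -7.89 (edgeR adjusted p = 8.2e-05). It was lower in 3 of 3 FaWRKY71-RNAi libraries than in any Control library. The other close neighbours of this pair did not show such a difference. FvH4_1g04080.1 had 167, 343 and 317 counts in FaWRKY71-RNAi and 263, 279 and 285 in Control, and these overlap (log2 fold change -0.02, edgeR adjusted p = 0.96). On the other side FvH4_1g04020.1 rose slightly, with a log2 fold change of 0.58 (edgeR adjusted p = 0.018).

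A longer stretch lay in series 5. The members FvH4_5g01810.1 and FvH4_5g01830.1 enclose FvH4_5g01820.1, which had 11, 60 and 32 counts in FaWRKY71-RNAi and 2173, 2096 and 1987 in Control (log2 fold change -5.93, edgeR adjusted p = 0.00036). FvH4_5g01810.1 had 0 counts in each FaWRKY71-RNAi library and 17, 14 and 14 in Control. FvH4_5g01830.1 had 0, 1 and 0 in FaWRKY71-RNAi and 23, 11 and 11 in Control. In Control replicate 3 the deposited values of these members were 14.3492 and 10.6508, fractions that complete each other to a whole number. They were not covered by the search for shared reads described below, which needed fractions in at least 3 libraries. The next ID, FvH4_5g01840.1, had 7, 87 and 27 counts in FaWRKY71-RNAi and 360, 288 and 316 in Control (log2 fold change -2.99, edgeR adjusted p = 0.015). In both abundant IDs FaWRKY71-RNAi replicate 2 was the highest of its genotype and replicate 1 the lowest. FvH4_5g01790.1, before the stretch, rose with a log2 fold change of 1.33 (edgeR adjusted p = 0.00051).

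In series 3, FvH4_3g35270.1 had 1, 2 and 5 counts in FaWRKY71-RNAi and 137, 109 and 155 in Control, beside the member FvH4_3g35280.1 of similar Control level. Its log2 fold change was -5.62 (edgeR adjusted p = 5.4e-05). Both IDs had fractional deposited values. Those of the member were fractional only in Control replicate 3 (89.5204), too few libraries for the search for shared reads described below. In series 2, 7 consecutive tested IDs fell, 4 of them without an ID between. The member FvH4_2g28500.1, with 2, 0 and 1 counts in FaWRKY71-RNAi and 14, 12 and 14 in Control, followed FvH4_2g28480.1 and FvH4_2g28490.1 and preceded FvH4_2g28510.1. This member, with a fractional value in Control replicate 3 (13.9377), was not covered by that search either, and FvH4_2g28510.1 also had fractional values. FvH4_2g28490.1 had 2, 2 and 2 counts in FaWRKY71-RNAi and 27, 27 and 31 in Control (log2 fold change -3.78, edgeR adjusted p = 0.00015). FvH4_2g28480.1 and FvH4_2g28510.1 fell by 2.53 and 2.93 on the log2 scale (edgeR adjusted p = 0.00049 and 0.0014). Further out, FvH4_2g28400.1 had 0, 34 and 18 counts in FaWRKY71-RNAi and 209, 262 and 263 in Control (log2 fold change -3.83, edgeR adjusted p = 0.0077). FvH4_2g28450.1 and, on the other side, FvH4_2g28560.1 fell by 2.78 and 2.21 on the log2 scale (edgeR adjusted p = 0.0091 and 0.0042). The next tested ID, FvH4_2g28570.1, had a log2 fold change of 0.20 (edgeR adjusted p = 0.67). The remaining 4 of the 8, FvH4_7g32800.1, FvH4_5g08690.1, FvH4_3g37330.1 and FvH4_6g34420.1, had log2 fold changes between -4.87 and -3.18 and were separated from their member by 1 to 3 IDs with 5 counts or fewer in every library. All of these except FvH4_5g08690.1 had fractional deposited values. Whether reads were shared between these flanks and other IDs was not tested.

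**Figure D5:**
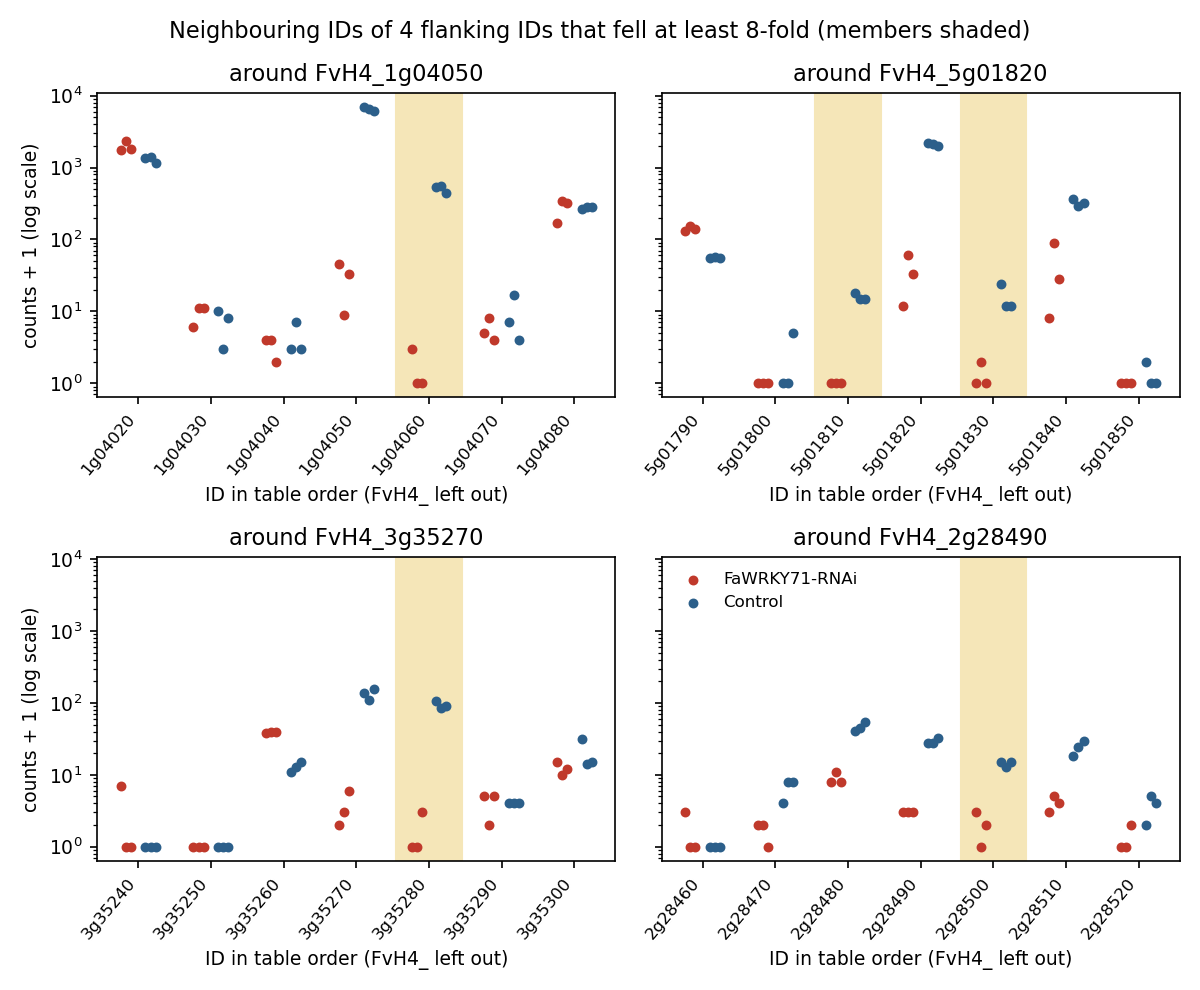
Counts plus 1 on a log axis for consecutive IDs around 4 of the flanks that fell at least 8-fold, with 1 point per library, FaWRKY71-RNAi in red and Control in blue, and members shaded. Among the 7 IDs of each panel the low red points cover 2 to 4 consecutive IDs, and the other IDs shown have similar counts in both genotypes, few counts or more in FaWRKY71-RNAi.

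Some members lay beside IDs that moved the other way. Of the flanks, FvH4_5g27960.1 and FvH4_2g41080.1 rose most. FvH4_5g27960.1 had 42, 35 and 52 counts in FaWRKY71-RNAi and 3, 1 and 1 in Control (log2 fold change 4.55, edgeR adjusted p = 0.00017). It lay 2 IDs from the member FvH4_5g27980.1. FvH4_2g41080.1 had 18, 21 and 14 counts in FaWRKY71-RNAi and 2, 1 and 0 in Control (log2 fold change 3.95, edgeR adjusted p = 0.0016), directly beside the member FvH4_2g41070.1, which had 0, 2 and 2 in FaWRKY71-RNAi and 19, 30 and 30 in Control. Both flanks met the rule with the genotypes exchanged. Such an ID lay on the next row of the table for 1 member (1.18%), within 2 rows for 2 (2.35%) and within 5 rows for 3 (3.53%), against 0.99%, 2.02% and 4.95% of the 14137 IDs that could have met the rule. These counts are too small to compare. FvH4_1g05180.1, beside FvH4_1g05190.1, was singled out after its values were seen. It had 11195, 7643 and 10901 counts in FaWRKY71-RNAi and 1284, 1294 and 1049 in Control, a log2 fold change of 2.99 (edgeR adjusted p = 1.2e-05). Both IDs had fractional deposited values, and whether reads were divided between them differently in the genotypes was not tested.

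Reads shared between similar IDs touched part of the set. A fractional deposited value in at least 1 library was found for 19 members (22.4%), against 22.5% of the IDs that could have met the rule, and for 79 of the 160 IDs (49.4%) of the reversed rule. If a read is split between a pair of IDs, their fractions add up to whole numbers. For 10 of the 12 members with fractions in at least 3 libraries, a partner was found whose value completed the member's to a whole number, within 0.002, in each of those libraries. No such partner was found for FvH4_1g05190.1 and FvH4_5g00780.1, so no sum could be formed for them. The 10 members formed 9 pairs with their partners, of which 5 were adjacent IDs, and 1 pair, FvH4_6g41590.1 and FvH4_6g41600.1, was made of members. This search was added after the data were seen.

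For 2 members the sum with the partner was not lower in FaWRKY71-RNAi. FvH4_1g10500.1 and its neighbour FvH4_1g10490.1 together had 1410, 980 and 1235 counts in FaWRKY71-RNAi and 1259, 1168 and 1145 in Control. The summed level was 128 ± 15.2 CPM in FaWRKY71-RNAi and 130 ± 2.17 CPM in Control (SD, n = 3 each), and the genotypes overlapped. FvH4_6g45540.1 had 0 counts in each FaWRKY71-RNAi library, but with its neighbour FvH4_6g45530.1 the sum was higher there, 535, 420 and 510 counts against 158, 171 and 155 in Control. The other 7 pairs were lower in every FaWRKY71-RNAi library than in any Control library also when summed. Among them FvH4_5g06210.1 and its partner FvH4_6g24680.1 had 7, 3 and 1 counts in FaWRKY71-RNAi and 150, 164 and 162 in Control, and FvH4_6g41590.1 with FvH4_6g41600.1 had 0, 0 and 1 in FaWRKY71-RNAi and 164, 159 and 132 in Control. The remaining pairs fell less. In mean CPM, FaWRKY71-RNAi against Control, the sum was 8.01 against 19.4 for FvH4_1g21160.1 and 11.5 against 19.5 for FvH4_2g36190.1. It was 7.38 against 14.7 for FvH4_5g27980.1, 7.63 against 19.1 for FvH4_7g18550.1 and 0.549 against 2.63 for FvH4_4g36240.1. The sources used here do not say how reads were divided in the deposited counts. The part of this division in the loss of any of these members was not tested. The most abundant member, FvH4_6g38920.1, had whole values in all 6 libraries, as did FvH4_1g04060.1, FvH4_1g12550.1, FvH4_4g24850.1, FvH4_2g09610.1, FvH4_5g07710.1 and FvH4_2g01660.1.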

How the data were processed

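Per the labels' protocols, poly(A) RNA of 3 libraries per genotype was sequenced as stranded read pairs. The authors deposited 1 table of estimated counts per ID; most values are whole, the rest fractional. The sources used here name no aligner, counter, genome build or annotation and do not say whether strand was used. Columns were tied to samples by the labels' library names. Counts were rounded to whole numbers, filtered (filterByExpr), scaled with TMM (trimmed mean of M-values) and tested in R 4.3.3 with edgeR 4.0.16 (quasi-likelihood F test, robust, genotype as the only term, all 6 libraries). The procedure was checked on simulated data. CPM use the scaled library size. Pooled folds of members set a FaWRKY71-RNAi sum of 0 to a group floor of 3 counts and otherwise have an exact 95% interval. Levels are not corrected for transcript length and are not compared between IDs as molecules.

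The members and lists were chosen with earlier results of these data known. IDs with all 6 values are the 10 most abundant members, the 5 most abundant at 0 in FaWRKY71-RNAi, those at the rule's limits, adjacent members, the most changed flanks and the members with the widest Control range; others named are said to be chosen after their values were seen, or are neighbours or read-sharing partners of these and the 8 flanks that fell at least 8-fold. Planned lists by gene description could not be used, as 0 IDs matched the reference table. Alternatives were other scalings, no filter, DESeq2 1.42.0, a replicate block, leaving out each library, other limits of the rule and other flank widths.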

Additional observations from a re-analysis of the deposited data

How the results depend on the processing

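The 8436 calls over all IDs stayed within 1.5 times under every alternative run, from 6822 to 10241 with a library left out. The number of members depended on the rule's limits: 37 with at least 20 counts in each Control library, 150 with at most 10 counts summed and 14 with 0 counts. It was 60 with at most 3 counts, 81 with unrounded values, 78 with limits in CPM, 76 without c1 and c3, and from 98 to 164 with a library left out of the rule. Summed member CPM in FaWRKY71-RNAi and Control were 3.126 and 585.1 at 20 counts, 2.916 and 558.4 at most 3 counts, 25.76 and 1146 at most 10 counts, 0.0 and 60.68 at 0 counts, and 6.206 and 660.6 without c1 and c3. The Control sum was 708.4 with upper-quartile factors and 649.3 with library size alone. Flanks called lower and higher were 53 and 40 with 1 nearest on each side and 214 and 203 with 5, since fewer or more IDs were counted; without a filter 52 flanks were called higher, among more IDs tested. With a library left out, 68 to 115 flanks were called lower and 65 to 88 higher. Library size alone made 5440 calls higher and 2857 lower, against 4676 and 3760, and the median log2 fold change over all tested IDs was 0.18 then and -0.07 with upper-quartile factors, against 0.03. With library size alone the share of flanks outside c1 and c3 that fell was 20.1%, against 17.8% of other non-members. The flanks that fell or rose most, FvH4_1g04050.1, FvH4_5g01820.1, FvH4_5g27960.1 and FvH4_2g41080.1, kept direction and call in every alternative run that tested them. Nothing is stated here for the other flanks named.

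For same-numbered libraries, the correlations of deviations from their genotype's mean were 0.114, -0.0608 and 0.0317, and for the others they ran from -0.166 to 0.14. With 3 libraries per genotype these deviations depend on each other, so the correlations cannot show whether libraries were paired. With the replicate block 7614 IDs were called, 80 flanks lower and 73 higher. Depth limits what can be said of members with few Control counts, whose fold may be small.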
